A study of Mus musculus with 2 samples.

Results

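The nicotinamide methylation and NAD synthesis genes are 10 genes named for their place in this metabolism: Nnmt, the nicotinamide methyltransferase; Tdo2, Kmo, Kynu, Haao, Acmsd and Qprt of the route from tryptophan; and Nampt, Nmnat1 and Nadsyn1, which make NAD from nicotinamide and from later intermediates. They were taken by name from the array's gene column, which gave 12 probes for the 10 genes, among 39429 probes and 19989 measured genes in all. Expression was measured in mouse liver on 2 single-colour Agilent arrays, 1 with RNA of Pnpla8-/- mice and 1 with RNA of WT mice, both C57BL/6N. Pnpla8 encodes a phospholipase that releases fatty acids from membrane phospholipids, and the arrays belong to work on phosphatidylcholine breakdown as a source of choline and methyl groups in the liver, as its title states. Each array held liver RNA pooled from 5 animals, whose age is 6 weeks in the sample labels and 8 weeks in the series design. No treatment is named for either genotype, and the part of Pnpla8 that was deleted and the sex of the animals are unstated in the labels. Since each genotype had a single array, no difference could be tested or checked against a replicate. Genotype, pool and array position cannot be told apart, and genes are described as higher or lower by size alone.

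NAD is the electron carrier of oxidative metabolism and the substrate of sirtuins and poly(ADP-ribose) polymerases, and the liver is the main organ that builds it from tryptophan. That route opens with Tdo2, runs through kynurenine and its hydroxylated product, and reaches an unstable intermediate that either closes by itself to quinolinate, which Qprt takes on towards NAD, or is drawn off by Acmsd towards complete oxidation. Nicotinamide released by NAD-consuming enzymes is rebuilt to NAD by Nampt and the Nmnat enzymes, or is methylated by Nnmt, which uses S-adenosylmethionine as the methyl donor and thereby ties NAD metabolism to the methionine cycle.

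Probes for Nnmt, Tdo2, Kynu and Nmnat1 are shown because the values below are hybridisation signals of such sequences of 60 bases, all of which is target and is therefore in capitals. The Nnmt, Tdo2 and Nmnat1 values each come from the probe shown, whereas Kynu has 2 probes, of which the second is shown. They were designed on mature transcripts and so lie in exonic sequence, starting at base 521 of the Nnmt transcript NM_010924, base 739 of the Tdo2 transcript NM_019911, base 766 of the Kynu transcript NM_001289593 and base 831 of the Nmnat1 transcript NM_133435, as the array file counts them.
Nnmt: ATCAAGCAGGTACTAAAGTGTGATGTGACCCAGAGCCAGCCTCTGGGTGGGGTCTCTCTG
Tdo2: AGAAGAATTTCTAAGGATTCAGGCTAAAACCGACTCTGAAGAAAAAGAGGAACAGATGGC
Kynu: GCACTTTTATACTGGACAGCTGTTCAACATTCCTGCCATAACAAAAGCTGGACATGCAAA
Nmnat1: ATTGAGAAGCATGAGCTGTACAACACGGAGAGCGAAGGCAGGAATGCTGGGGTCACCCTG
In the mm9 build named in the file header, the Nnmt probe is placed on the minus strand at chr9:48400368-48400427, the Kynu probe on the plus strand at chr2:43459748-43459807 and the Nmnat1 probe on the minus strand at chr4:148842959-148843018, while the file gives no position for the Tdo2 probe.

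The 75th percentile of the processed signal, by which each array was scaled, was 1018.65 on the Pnpla8-/- array and 1207.25 on the WT array, and 65.6% and 70.1% of their spots were well above background. All 12 member probes were well above background on both arrays, with 0 saturated and 0 marked as outliers. Over all measured genes the median log2 ratio of Pnpla8-/- over WT was 0.04. Pnpla8 itself read 4.45 in the Pnpla8-/- pool, not well above background, and 144.5 in the WT pool, at least 6.81-fold lower in the knockout, although whether its probe lies in the deleted part is unknown. The hepatocyte markers were well above background on both arrays for 7 of 7 genes, with a summed scaled signal of 1536 in the Pnpla8-/- pool and 1203 in the WT pool. By log2 ratio 6 of the 7 were above 0 and 1 was below, against 56.9% and 43.1% of all genes, with a median of 0.34. Macrophage markers were lower in the knockout for 8 of 8 genes, against 43.1% of all genes. The summed scaled signal of these markers was 52.6 in the Pnpla8-/- pool and 107.7 in the WT pool. Fewer cells of a type and less RNA per cell cannot be told apart in such pools.

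Nnmt and Acmsd were the members that differed most. Both were at least 2-fold higher in the Pnpla8-/- pool, 2 of 10 members against 1.29% of all measured genes, and 0 of 10 were at least 2-fold lower, against 1.85% of all. Tdo2 came next at 1.74-fold higher. At a threshold of 1.5-fold, 3 of 10 members were higher, against 4.42% of all genes, and 0 were lower, against 5.93%. At 3-fold, Nnmt alone was higher, against 0.305% of all genes, and 0 were lower, against 0.270%. The members were chosen with earlier results of these data known, so the counts beside these shares are description only. The remaining 7 members lay in a narrow band of log2 ratios between 0.12 for Nmnat1 and 0.37 for Kmo, so that all 10 were above 0, as were 56.9% of all genes, and 0 were below 0, against 43.1%. The median log2 ratio of the 10 members was 0.31, beside 0.34 for the 7 hepatocyte markers. Among these markers Tat (1.32), Cps1 (0.99) and Hpd (0.85) lay above Tdo2 (0.80). Serpina1a (0.34), Alb (0.24), Ttr (0.16) and Apoa1 (-0.15) lay below it. Among the 9135 genes at least as bright as the dimmest member, 1.16% were at least 2-fold higher, 0.985% were at least 2-fold lower, 61.7% were above 0 and the median was 0.059. In the brightest signal decile, of 1999 genes, the median was 0.11.

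**Figure D1:**
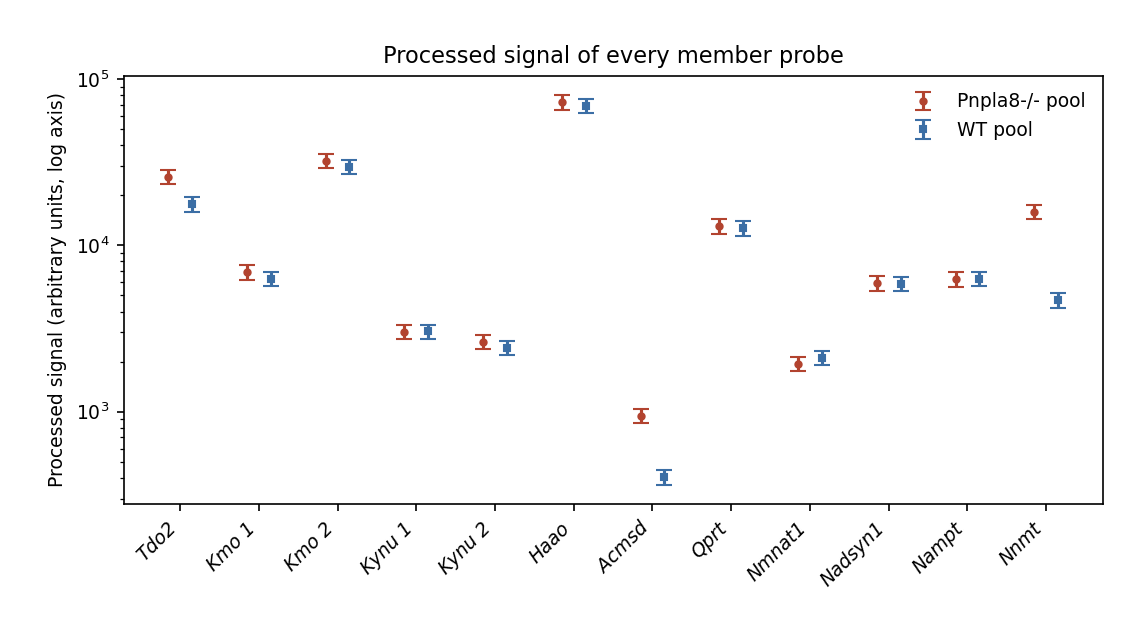
Processed signal on a log axis of each of the 12 member probes in the Pnpla8-/- pool (circles) and the WT pool (squares), 1 array each; bars are the scanner software's signal error, and Kmo and Kynu have 2 probes. The circles stand clear of the squares for Nnmt, Acmsd and Tdo2 and overlap within the error bars for the other probes.

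Nnmt read a processed signal of 15899.8 ± 1590 in the Pnpla8-/- pool and 4672 ± 467 in the WT pool. The errors are the scanner software's own, which assume a multiplicative part of 10% and say nothing of differences between animals. After scaling, the signal stood at 15.6 times the 75th percentile in the Pnpla8-/- pool and at 3.87 times it in the WT pool, a 4.03-fold difference (log2 ratio 2.01, error 0.20). It was the gene with the 25th highest ratio of the 19989 measured, within the highest 0.125%. Without any scaling the 2 signals still differed 3.40-fold.

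A further probe bears on Nnmt although the array file names it only by an Ensembl transcript, ENSMUST00000034808, so that the choice by gene name leaves it out. Its description in the file is an Nnmt transcript variant, it starts at base 31 of that transcript, and it is placed on the minus strand at chr9:48413168-48413227 (mm9), towards the 5' end of the gene from the first probe. It read 491 in the Pnpla8-/- pool and 186 in the WT pool, a 3.13-fold difference after scaling (log2 ratio 1.64). Both probes were thus higher in the knockout pool, the dimmer by less. Its log2 ratio ran from 1.40 without scaling to 1.71 with median scaling.

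By the rule of nearest ratio over the 2 arrays, the genes next to Nnmt were Raet1e (4.04-fold), Cep126 (4.07-fold) and the transcript ENSMUST00000121135 (4.10-fold) above it, and Erdr1 (3.95-fold), the transcript ENSMUST00000194908 (3.94-fold) and the basement membrane collagen Col4a3 (3.85-fold) below it. Cep126, ENSMUST00000194908 and Col4a3 were dim, at or below 0.067 of the 75th percentile in both pools. Nnmt lay above the percentile in both, as did Raet1e, Erdr1 and ENSMUST00000121135. The last was brighter than Nnmt, at 25.5 times the percentile in the Pnpla8-/- pool and 6.23 times in the WT pool.

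The entry of the tryptophan route was higher in the knockout pool by more than its middle. Tdo2, the dioxygenase that opens the tryptophan ring and sets the flow into the pathway, read 25932 ± 2593 in the Pnpla8-/- pool and 17715 ± 1772 in the WT pool (log2 ratio 0.80, error 0.20). Afmid, the formamidase of the next step and no member, had 7008 in the Pnpla8-/- pool and 4201 in the WT pool, 1.98-fold higher. Ido2, a further tryptophan-opening dioxygenase, was at 0.26, and Ido1, the inducible form, was not well above background in either pool.

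Kmo, which hydroxylates kynurenine, was measured by a pair of probes on its transcript that read 6901 and 32267 in the Pnpla8-/- pool, against 6287 and 29763 in the WT pool. Their log2 ratios, 0.38 and 0.36, differed by less than the median spread between probes of a gene on these arrays, an SD of 0.095 over 4263 genes. Kynu, kynureninase, had probes on different transcript variants that read 3018 and 2626 in the Pnpla8-/- pool and 3034 and 2425 in the WT pool. Their ratios, 0.24 and 0.36, lay on the same side of 0. Before scaling, the first of them was marginally lower in the knockout.

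Haao, the dioxygenase that makes the unstable branch-point intermediate, was the brightest member probe, with 72836 ± 7284 in the Pnpla8-/- pool and 69343 ± 6934 in the WT pool (log2 ratio 0.32). Inside these arrays, so free of any common scaling, the Tdo2 ratio exceeded the Kmo ratio by 0.42 and the Afmid ratio exceeded it by 0.61 on the log2 scale. The kynurenine side branches differed among themselves. Aadat, a kynurenine aminotransferase, was 1.84-fold higher at a dim 75.1 in the Pnpla8-/- pool and 48.5 in the WT pool, whereas the aminotransferases Kyat1 (0.020) and Kyat3 (0.10) were near 0 and changed sign between settings. Over the 6 measured genes of 8 in this list, 6 were above 0, against 56.9% of all genes. Past 2-fold were 0 of 6, against 1.29% of all genes higher and 1.85% lower. The median of the list was 0.26, or 0.015 without scaling.

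At the branch point the enzymes of the 2 arms differed in size of change. Acmsd, the decarboxylase that draws the intermediate away from NAD synthesis, read 947 ± 94.8 in the Pnpla8-/- pool and 405 ± 40.6 in the WT pool, a 2.77-fold difference (log2 ratio 1.47, error 0.20). It ranked 74th from the highest of all measured genes. Its probe, the dimmest of the members, starts at base 2241 of transcript NM_001033041 and is placed on the plus strand at chr1:129664080-129664139 (mm9).

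Qprt, which commits quinolinate to NAD, read 13028 ± 1303 in the Pnpla8-/- pool and 12699 ± 1270 in the WT pool, so that the signals before scaling overlapped within their errors. After scaling the log2 ratio was 0.28 (error 0.20), a fold range of 1.06 to 1.40 within that error. The Acmsd ratio exceeded the Qprt ratio by 1.19 on the log2 scale, or 2.28-fold, and over 12 other settings the excess ran from 1.03 to 1.34. Of these settings only quantile and loess scaling and the normexp background could move it, since each gene has 1 probe. Signals of different probes cannot be set against each other, so only the changes, and not the levels of Acmsd and Qprt, are compared.

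**Figure D2:**
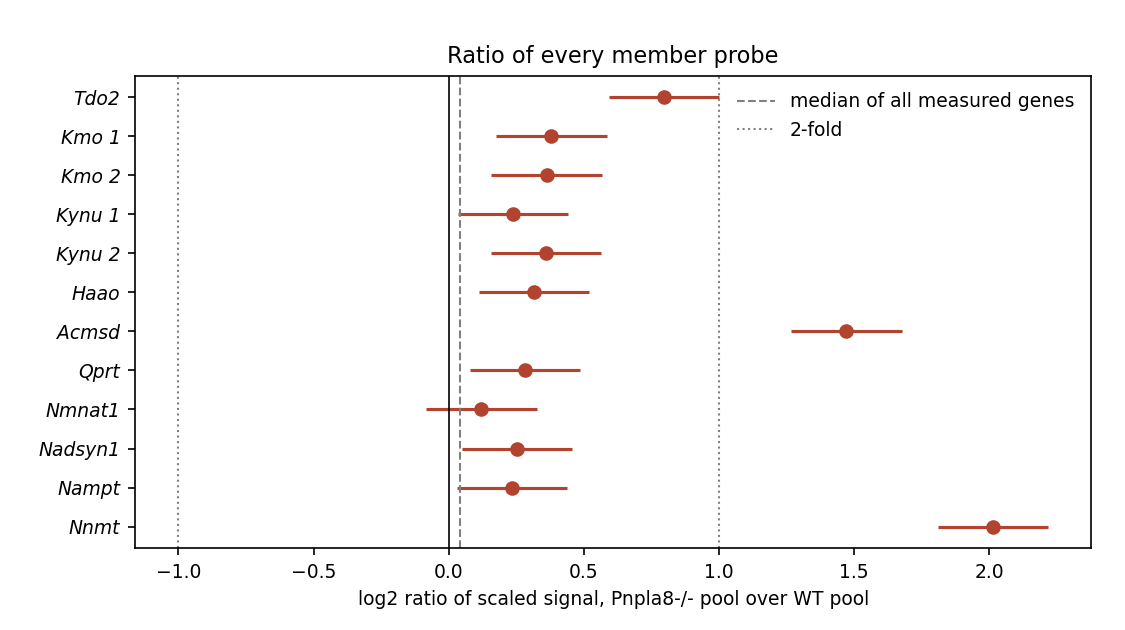
Log2 ratio of scaled signal, Pnpla8-/- pool over WT pool, of each member probe, ordered along the tryptophan route and then the shared and salvage steps; bars are the error from the scanner software's signal errors. Nnmt at 2.01 and Acmsd at 1.47 lie past the dotted line of 2-fold, Tdo2 lies at 0.80, and the other probes lie between 0.12 and 0.38, to the right of the dashed median of all genes at 0.04.

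The later and salvage steps showed little difference between the pools. Nampt, the rate-limiting enzyme of nicotinamide salvage, read 6246 ± 625 in the Pnpla8-/- pool and 6295 ± 629 in the WT pool (log2 ratio 0.23). Nmnat1, the nuclear adenylyltransferase that forms NAD or its acid precursor, read 1939 ± 194 in the Pnpla8-/- pool and 2114 ± 211 in the WT pool (log2 ratio 0.12). Nadsyn1, the NAD synthetase that amidates the acid precursor, read 5918 ± 592 in the Pnpla8-/- pool and 5885 ± 589 in the WT pool (log2 ratio 0.25).

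For all 3 the processed signals before scaling overlapped within their errors, and unscaled the Pnpla8-/- signal was 0.992 of the WT signal for Nampt, 0.917 for Nmnat1 and 1.006 for Nadsyn1. After scaling, the fold range within the error was 1.021 to 1.355 for Nampt and 1.035 to 1.373 for Nadsyn1, both above 1. For Nmnat1 it was 0.944 to 1.252, which includes 1. The all-gene median without scaling was a log2 ratio of -0.21, against which the same 3 genes lay on the higher side. The Nnmt ratio exceeded that of Nampt, the other enzyme that takes up nicotinamide, by 1.78 on the log2 scale, 3.43-fold, with a range of 1.75 to 1.78 over the 12 settings. With 1 probe per gene, only quantile and loess scaling and the normexp background could move this difference.

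**Figure D3:**
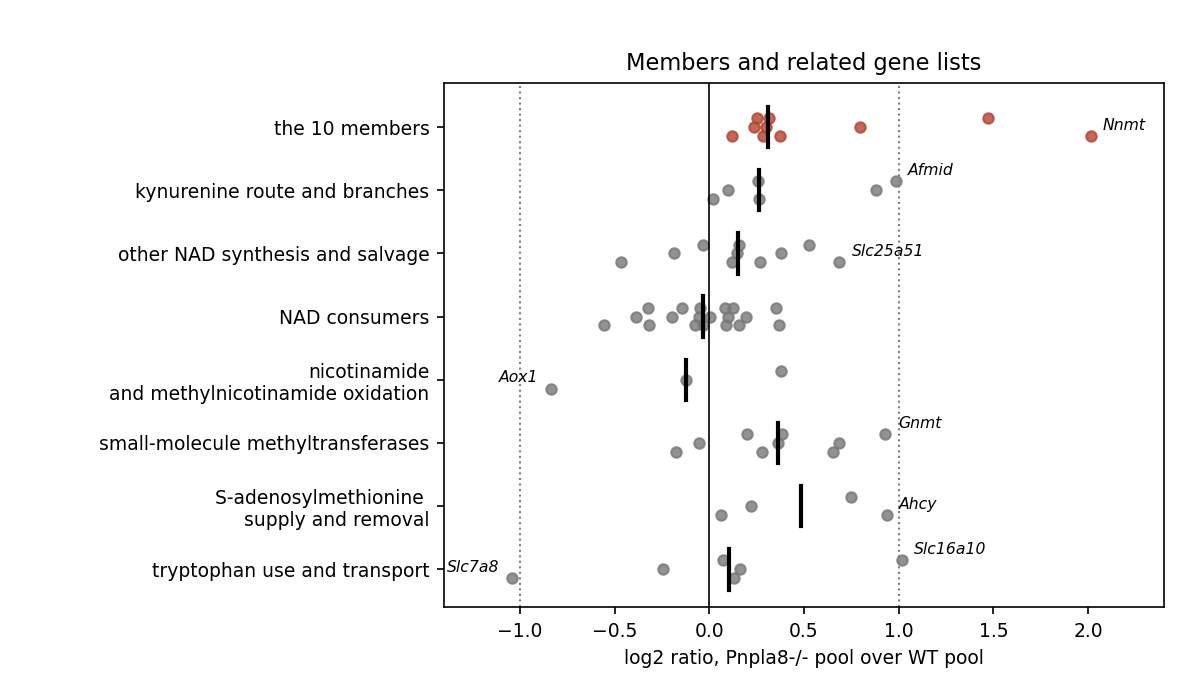
Log2 ratio of each measured gene, Pnpla8-/- pool over WT pool, in the 10 members and 7 related lists; each point is 1 gene, vertical bars are list medians and dotted lines mark 2-fold. Nnmt stands apart at 2.01, the NAD consumers scatter around 0 with a median of -0.034, and Aox1 lies at -0.84.

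Of the other NAD synthesis and salvage genes, 10 of 12 were measured on both arrays. Past 2-fold were 0 of 10, against 1.29% of all genes higher and 1.85% lower. The median of this list was 0.15, which turned to -0.094 without scaling and -0.012 with spike-in scaling. The highest were Slc25a51, the mitochondrial NAD carrier, at 1.61-fold (log2 ratios 0.69 and 0.68 from its probes), and Nmnat3, the mitochondrial adenylyltransferase, with 2103 in the Pnpla8-/- pool and 1734 in the WT pool (0.52). Naprt, which starts the salvage of nicotinic acid, was at 0.12, the nicotinamide riboside kinase Nmrk1 at 0.27, and the NAD kinases Nadk at 0.15 and Nadk2 at 0.16. Naprt, Nadk and Nadk2 changed sign between settings, with lowest values of -0.13, -0.099 and -0.090. The lowest was Nt5e, the ectonucleotidase CD73, at -0.46. Nmnat2 was not well above background in either pool, and Nmrk2 was well above background in the WT pool but not in the Pnpla8-/- pool.

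Of the NAD-consuming enzymes 19 of 21 were measured, with 9 above 0 and 10 below 0, against 56.9% and 43.1% of all genes. Past 2-fold were 0 of 19, against 1.29% of all genes higher and 1.85% lower. The median of these enzymes, -0.034, ran from -0.28 without scaling to 0.083 with dim probes kept. The mitochondrial sirtuins Sirt3 (0.35) and Sirt5 (0.37) were the highest, and Sirt1, the nuclear deacetylase, was at 0.13. Parp1, the main DNA damage-responsive polymerase, was at -0.055, and both Sirt1 and Parp1 changed sign between settings. The lowest were Parp3 (-0.55) and Parp14 (-0.39), with the NAD glycohydrolase Cd38 at -0.32, a gene that immune cells also express and that lay on the same side as the macrophage markers, whose part in it was not tested.

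Downstream of Nnmt, Aox1, an aldehyde oxidase able to oxidise methylnicotinamide to pyridones, read 6047 in the Pnpla8-/- pool and 12789 in the WT pool, 1.78-fold lower in the knockout (log2 ratio -0.84). Aox3, its liver-rich relative, was at -0.12, and Aox2 and Aox4 were not well above background in either pool. Nnmt and Aox1 therefore differed in opposite directions, by 2.85 on the log2 scale between their ratios. Cyp2e1, a cytochrome P450 that oxidises nicotinamide, was at 0.38.

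On the methyl donor side, small-molecule methyltransferases that share S-adenosylmethionine with Nnmt were above 0 for 7 of 9 measured, against 56.9% of all genes. Past 2-fold were 0 of 9, against 1.29% of all genes higher and 1.85% lower. The methyltransferase median of 0.37 was 0.17 with quantile scaling, 0.22 with loess, 0.20 with the spike-ins and 0.12 without scaling. Gnmt, the glycine methyltransferase that buffers hepatic S-adenosylmethionine, read 162179 in the Pnpla8-/- pool and 100922 in the WT pool, 1.90-fold higher. The histamine and thiopurine methyltransferases Hnmt (1.61-fold) and Tpmt (1.57-fold) followed. Gamt (0.28) and Pemt (0.20), which make creatine and phosphatidylcholine, lay among the NAD synthesis members in size, and Pemt turned to -0.044 without scaling. The Nnmt ratio exceeded the Gnmt ratio by 1.08 on the log2 scale.

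The enzymes that supply the methyl donor and remove its product differed by isoform. Mat1a, the liver S-adenosylmethionine synthetase, was 1.68-fold higher with 86539 in the Pnpla8-/- pool and 61044 in the WT pool, and Ahcy, which clears S-adenosylhomocysteine, was 1.91-fold higher over its probes. Mat2a, the form of extrahepatic and dividing cells, was at 0.060 and turned to -0.18 without scaling.

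Nnmt is abundant in fat, so adipocyte markers were set beside it. Of 6, the defining markers Adipoq, Plin1, Lep and Cfd were not well above background on both arrays, and the 2 measured, Fabp4 and Retn, were lower in the knockout pool, with log2 ratios of -0.34 and -0.20. The summed scaled signal of these 2 genes alone was 2.21 in the Pnpla8-/- pool and 2.79 in the WT pool. Most of it came from Fabp4, at 2.16 in the Pnpla8-/- pool and 2.74 in the WT pool. Periportal hepatocyte markers, Hal, Sds, Gls2 and Pck1, were on the higher side for 4 of 4 genes with a median of 0.97, and their summed scaled signal was 308 in the Pnpla8-/- pool and 170 in the WT pool. Pericentral markers were so for 3 of 4 genes, Oat (1.31), Cyp2e1 (0.38) and Cyp1a2 (0.36), whereas Glul (-0.16) was on the lower side. The pericentral median was 0.37, and the summed scaled signal was 553 in the Pnpla8-/- pool and 427 in the WT pool. Kidney proximal tubule markers were set beside Acmsd, which the kidney also expresses. Of 3, Kap was not well above background on both arrays, and Slc22a6 (0.53) and Slc34a1 (0.35) were on the higher side, with a summed scaled signal of 0.457 in the Pnpla8-/- pool and 0.329 in the WT pool. Neutrophil markers were on the lower side for 3 of 3 measured genes, with a median of -1.65 and a summed scaled signal of 0.414 in the Pnpla8-/- pool and 1.29 in the WT pool. Over all measured genes, 56.9% were on the higher side and 43.1% on the lower. The part of these markers in the Tdo2, Acmsd and Nnmt ratios was not tested.

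The 250 bases before the transcription start of Tdo2, which opens the route and was higher in the knockout pool, are shown with the letters of short motifs in capitals. The sequence is RefSeq's, on the minus strand of GRCm38.p6 at chr3:81975729-81975978.
Tdo2: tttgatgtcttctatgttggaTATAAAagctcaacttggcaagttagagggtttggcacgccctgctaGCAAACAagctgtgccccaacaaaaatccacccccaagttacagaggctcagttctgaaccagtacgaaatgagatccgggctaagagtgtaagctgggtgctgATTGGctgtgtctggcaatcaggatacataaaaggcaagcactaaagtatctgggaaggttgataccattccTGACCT
The capitals mark, on either strand, the letters TATAAA (the TATA box motif), the forkhead motif TGTTTGC (here as GCAAACA), the CCAAT motif (here as ATTGG) and AGGTCA (a nuclear receptor core motif, here as TGACCT). No 2 of them overlap.

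Of 32851 such windows of 250 bases, 14% held AGGTCA, 4.30% TGTTTGC, 12.4% TATAAA and 33.8% CCAAT. In Tdo2 the forkhead letters lay 182 to 176 bases before the start, and the letters TATAAA lay 229 to 224 bases before it. Windows were searched for 8 of the 10 members, and of these 4 held AGGTCA, 2 held TGTTTGC, 2 held CCAAT and 1 held TATAAA. The GC box GGGCGG was found for Nampt, Nmnat1 and Nadsyn1, and in 32.7% of all windows. AGAACA, a glucocorticoid receptor core motif, and GTTAAT, an HNF1 core motif, were found for Haao alone, and in 16.1% and 6.43% of all windows. TGTTTAC, another forkhead form, and CACGTG, an E-box, were in 0 of the 8, and in 3.17% and 6.02% of all windows. These matches describe letters in a window and no binding was measured. Nnmt and Kynu are named without a window.

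**Figure D4:**
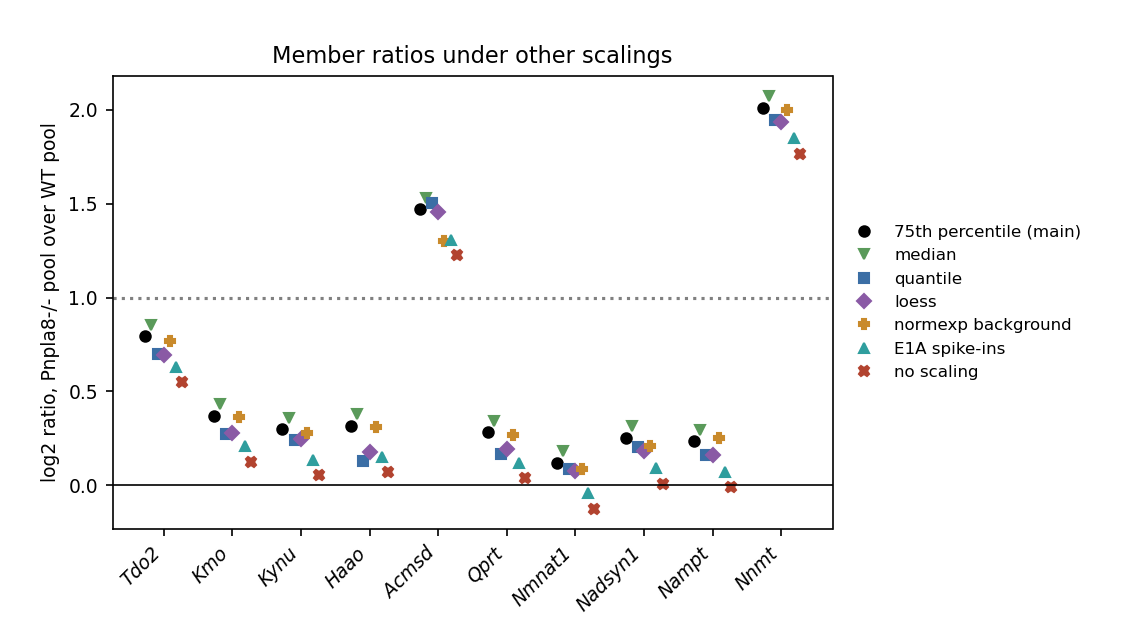
Log2 ratio of each member, Pnpla8-/- pool over WT pool, under the main scaling and 6 other treatments of the signals, drawn side by side; the dotted line marks 2-fold. Nnmt and Acmsd stay above the line in each, Tdo2 stays between 0 and the line, and Nampt and Nmnat1 lie at -0.011 and -0.12 without scaling.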

How the data were processed

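Liver RNA was cleaned with an RNeasy kit, and 200 ng of it went into amplification and Cy3 labelling, per the labels' protocols. Per the submitters' processing notes, the authors read spot intensity with version 11.5.1.1 of Agilent's Feature Extraction. The deposited scanner files hold background-subtracted, detrended intensity on a linear scale with no scaling between arrays, per the file headers. The deposited value table holds the same intensity divided by 1 constant per array, 1018.65 for the knockout and 1207.25 for the WT, which equal the 75th percentiles in the file headers. Of other per-sample columns there were 0.

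Log2 processed signals were centred on the 75th percentile of the array's non-control spots. Control spots and spots marked as non-uniform or population outliers (170 knockout, 119 WT) were left out. Spots of a probe were averaged. Probes well above background in both pools counted as measured, and genes took the median ratio of such probes. RefSeq's GRCm38.p6 table gave names to 28330 of the 39429 probes by accession and to 2204 by symbol; 8895 kept the name in the file. The error of a ratio combines both signal errors. The number of arrays limits the precision, and probes spotted at least 8 times had a median SD of 0.046 in log2 ratio between spots (295 probes).

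The members, lists and named genes were chosen with earlier results of these data known. All members and all genes of the lists were open to naming, as were the 3 genes on either side of Nnmt in ratio. Python 3.11.15, numpy 2.4.6, pandas 2.3.3, statsmodels 0.14.6 (loess, span 0.3), R 4.3.3 and limma 3.58.1 (normexp, offset 50) were used. The steps were tested on simulated data. Alternatives were other scalings, backgrounds, filters, probe summaries and fold thresholds, and scaling to 8 E1A spike-in controls was chosen after seeing the data.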

Additional observations from a re-analysis of the deposited data

How the results depend on the processing

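Nnmt and Acmsd were at least 2-fold higher in the knockout pool under all 12 other settings, and 0 members were at least 2-fold lower in any. Nnmt and Acmsd each have 1 probe without an outlier mark, so other filters and probe summaries could not change their ratios. The deposited value table uses the same scaling, so only the other scalings and the normexp background could move them. At a 3-fold threshold the count of higher members was 1, Nnmt, and at 1.5-fold it was 3. Without scaling the log2 ratio of Nnmt was 1.77 and the member median 0.062, and with spike-in scaling they were 1.85 and 0.14. These shifts follow the all-gene median, which was -0.21 without scaling and -0.12 with the spike-ins. Nampt turned to -0.011 without scaling, and Nmnat1 to -0.12 without scaling and -0.043 with the spike-ins; the other 8 members kept their sign throughout. Afmid passed 2-fold with median scaling and Aox1 without scaling. Over all genes, 258 were at least 2-fold higher and 370 lower, against 116 and 761 without scaling, 139 and 610 with the spike-ins, 135 and 128 with the normexp background, 148 and 229 above the median signal, and 996 and 1241 with dim probes kept; the cause was not tested. No paired analysis was possible because each genotype had 1 array, and for the same reason no replicate could be left out.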

Other observations

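Genes of tryptophan use and transport outside the NAD route went both ways. Slc16a10, an aromatic amino acid transporter of hepatocytes, had a log2 ratio of 1.02 over 3 probes, which read 3308, 745 and 180 in the Pnpla8-/- pool and 1939, 410 and 174 in the WT pool. The dimmest had a ratio of 0.30 and the others 1.02 and 1.11, and the gene was past 2-fold in 6 of 12 other settings. Slc7a8, a neutral amino acid exchanger, was 2.06-fold lower by a single dim probe, with 82.0 in the Pnpla8-/- pool and 199.9 in the WT pool, and was past 2-fold in 9 of 12 settings. Wars, the cytosolic tryptophanyl-tRNA synthetase, was at -0.24, and Slc3a2, a heavy chain shared by amino acid exchangers, at 0.16, which turned to -0.085 without scaling. Slc6a19 was not well above background in either pool.

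Nnt, the mitochondrial transhydrogenase that couples NADH to NADPH, had 3 probes of very different signal. The bright one read 16081 in the Pnpla8-/- pool and 19630 in the WT pool, with a log2 ratio of -0.042. The others read 88.7 and 36.7 in the Pnpla8-/- pool and 119.6 and 61.2 in the WT pool, with ratios of -0.19 and -0.49.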
